A study of Mus musculus with 20 samples.

Results

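Immediate early genes are the first genes that a cell transcribes when a signal, an injury or a stress reaches it. The 10 described here were Fos, Fosb, Jun, Junb, Egr1, Atf3, Ier2, Dusp1, Nr4a1 and Zfp36. They were chosen by name, with earlier results of these data known, as the lines of both count tables that carry these symbols. Each of the 10 was found once in kidney and once in bone marrow among 55486 genes. All 10 also had enough counts to be tested in both tissues, where 19293 genes were tested in kidney and 22363 in bone marrow. The mice were C57BL/6 animals, 10 weeks old before the 8 weeks of treatment. According to the methods both sexes were used, but the labels of the libraries do not give sex. One group was injected intraperitoneally with oxaliplatin, a platinum drug that crosslinks DNA, at 10 mg/kg per dose in 5% dextrose over 8 weeks. Doses were weekly, as the paper states for marrow. The other group received 5% dextrose, the vehicle, alone. Each tissue was sequenced in 5 vehicle and 5 oxaliplatin libraries, 20 in all, whose labels call them biological replicates, so each is taken as 1 mouse. Marrow from tibia and femur was collected 6 days after the last dose, and the time for kidney is not given in the sources used here.

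These genes need no new protein to be switched on, because the factors that start their transcription, among them serum response factor with its ternary complex partners and CREB, are already present and are activated by MAP kinases and other kinases. Fos, Fosb, Jun and Junb encode parts of AP-1, a dimeric transcription factor, while Atf3, Egr1 and Nr4a1 encode further DNA-binding factors. Dusp1 and Zfp36 encode inhibitors that end the response, a phosphatase of MAP kinases and tristetraprolin, an RNA-binding protein that destabilises cytokine transcripts. Their transcripts decay quickly, so a level within a cell reflects recent signalling. In bulk tissue the level also depends on the mix of cells.

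The bases just upstream of 4 members are shown because Jun and Nr4a1 were the members whose response to oxaliplatin differed between the tissues by the test given further on, Fos is the founding gene of the family, and Dusp1 encodes its feedback phosphatase. They come from RefSeq sequence of the GRCm38.p6 assembly, which held such a window for 8 of the 10 members, and run 5′ to 3′ toward the transcription start, without bases that annotated exons cover. Capitals mark matches, on either strand, to TGACG (the core of the cAMP response element bound by CREB and ATF factors), TGACGTCA (the full element, which contains TGACG on both strands), TGANTCA (which covers the AP-1 site), TGACATCA (an AP-1-like site known from Jun), TATAAA, GCGNGGGCG (the EGR site) and the serum response element.
Fos: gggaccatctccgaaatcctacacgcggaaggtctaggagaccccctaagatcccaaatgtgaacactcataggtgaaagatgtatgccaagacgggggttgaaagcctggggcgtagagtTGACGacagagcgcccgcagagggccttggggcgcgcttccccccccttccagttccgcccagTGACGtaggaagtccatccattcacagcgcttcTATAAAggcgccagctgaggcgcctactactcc
Jun: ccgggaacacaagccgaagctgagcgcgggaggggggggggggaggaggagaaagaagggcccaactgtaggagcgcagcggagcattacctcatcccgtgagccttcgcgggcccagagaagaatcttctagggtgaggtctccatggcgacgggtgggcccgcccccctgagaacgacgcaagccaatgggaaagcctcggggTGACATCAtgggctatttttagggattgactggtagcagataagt
Nr4a1: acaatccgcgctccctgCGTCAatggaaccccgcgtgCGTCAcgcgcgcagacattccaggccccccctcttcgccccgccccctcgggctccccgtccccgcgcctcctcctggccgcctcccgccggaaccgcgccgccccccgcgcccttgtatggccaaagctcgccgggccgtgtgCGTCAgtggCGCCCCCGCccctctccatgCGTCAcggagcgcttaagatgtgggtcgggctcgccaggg
Dusp1: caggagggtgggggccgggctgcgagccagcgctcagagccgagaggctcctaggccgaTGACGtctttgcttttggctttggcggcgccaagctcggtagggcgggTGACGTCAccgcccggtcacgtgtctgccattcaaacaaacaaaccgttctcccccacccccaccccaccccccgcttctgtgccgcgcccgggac

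The Fos window (chr12:85473640-85473889, plus strand) held TGACG at -129 and at -66 from the start and TATAAA at -33. That of Nr4a1 (chr15:101266596-101266845, plus strand) held TGACG 4 times, each on the opposite strand, where it reads CGTCA in the letters shown, and 1 EGR site. The Jun window (chr4:95052223-95052472, minus strand) matched TGACATCA at -45 and none of the other letters. In Dusp1 (chr17:26508520-26508722, minus strand, with 47 exon bases next to the start left off) the full element TGACGTCA stood at -143 and a further TGACG at -191. Among 32851 windows of 250 bases in the same table, 17.8% held TGACG, 1.55% held TGACGTCA, 6.75% held TGANTCA, 2.93% held TGACATCA, 12.4% held TATAAA, 4.70% held the EGR site and 1.47% held the serum response element. Among the 8 members that element was matched only in Zfp36. Only exact matches to CC, a run of A or T, and GG were counted, and copies beyond 250 bases were not sought. Egr1 and Ier2 had no window. Those of Nr4a1 and Dusp1 lie inside the gene spans given further on. They thus precede a RefSeq start within the span and not its outer end. A match is a run of letters, and no binding was measured.

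Values are CPM, read counts divided by the TMM-scaled library size and brought to a common scale, and means are given with the SD over 5 mice. Total counts ranged from 24393007 to 30925430 in kidney and from 30660153 to 41140527 in bone marrow, so the lowest member count, 4 reads of Fosb in a vehicle kidney, was near the floor of 3 counts. A gene was called when edgeR's two-sided quasi-likelihood test gave a Benjamini-Hochberg adjusted p under 0.05 over all tested genes and the fold change exceeded 1.5, and SE is the standard error of a log2 fold change in that fit. Markers of the proximal tubule summed to between 14676 and 29571 CPM in the kidney libraries and to at most 5.89 CPM in marrow, and neutrophil markers to at least 9726 CPM in marrow and at most 3.33 CPM in kidney, as the tissue labels state. Y-linked genes were present in all 20 libraries at 77.5 to 173 CPM in sum, lowest among marrow libraries in oxaliplatin mouse 5 at 99.1 CPM. No library thus lacked Y-linked reads, although the methods name both sexes. The Y-linked level used below as a covariate is therefore not a label of sex.

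In the kidney, 2 of the 10 members rose after oxaliplatin, Nr4a1 about 4-fold and Junb about 1.8-fold, and 0 fell. Fos and Egr1 had log2 fold changes of similar size to that of Nr4a1 but did not pass the test, and their single mice differed several-fold within each group. The called share of all kidney genes was 11.5%, with 7.68% higher and 3.81% lower. At an unadjusted p under 0.05, edgeR gave 5 members higher and 0 lower (20.5% and 20.2% of all genes), and DESeq2 called 4 higher (Fos, Junb, Egr1 and Nr4a1) and 0 lower (8.25% and 4.16%). The median log2 fold change over the 10 members was 0.70, against 0.02 over all tested genes. In every member the range of the oxaliplatin mice overlapped that of the vehicle mice, whereas the groups did not overlap in 20.7% of all tested genes, 9.69% with oxaliplatin higher and 11.0% lower.

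**Figure D1:**
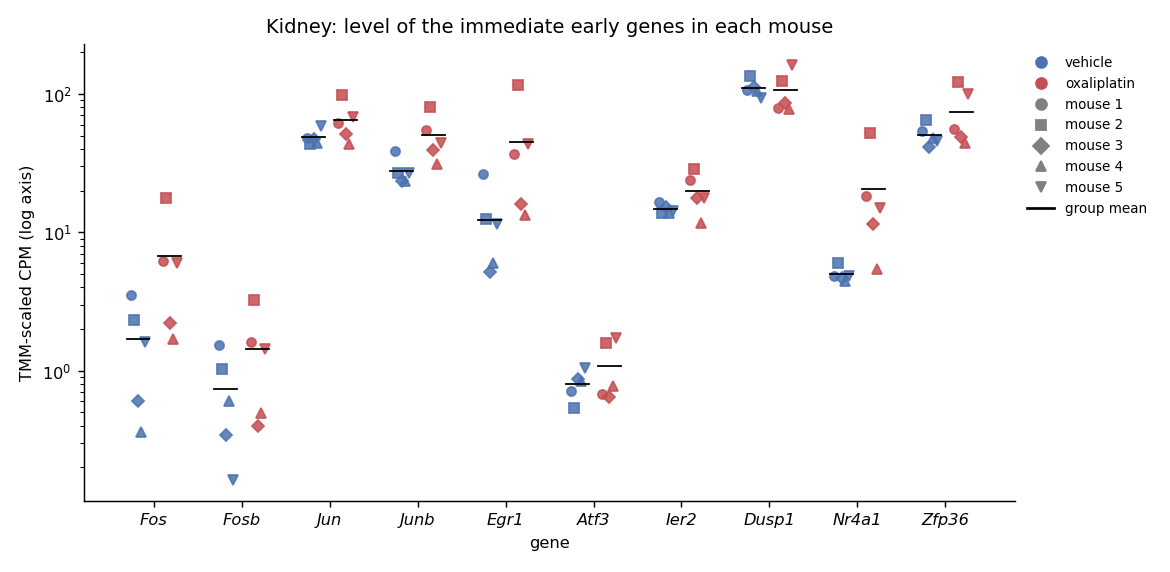
TMM-scaled CPM of the 10 members in each kidney, on a log axis, with 1 symbol per mouse, vehicle in blue, oxaliplatin in red and a black line at each group mean. Oxaliplatin mouse 2 was the highest of its group in 8 of the 10 genes and oxaliplatin mouse 4 the lowest in 8.

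Nr4a1 encodes an orphan nuclear receptor, NUR77, that binds DNA without a known natural ligand, and lies at chr15:101254269-101274795 on the plus strand of GRCm38. Its kidney level was 4.82, 6.02, 4.67, 4.47 and 4.82 CPM in vehicle mice 1 to 5 and 18.3, 52.5, 11.4, 5.40 and 15.0 CPM in oxaliplatin mice 1 to 5. Of the treated mice, 4 lay above every vehicle mouse and mouse 4 lay within the vehicle range. The mean went from 4.96 ± 0.611 to 20.5 ± 18.5 CPM, which is a log2 fold change of 2.05 (SE 0.58, edgeR adjusted p = 0.0292). Junb, an AP-1 subunit that often opposes Jun, lies at chr8:84974484-84978718 on the minus strand, and 173 of its exon bases are shared with Prdx2 on the opposite strand. It was measured at 38.6, 26.9, 23.4, 23.6 and 26.8 CPM in the vehicle kidneys and at 55.3, 80.9, 39.3, 31.0 and 44.6 CPM in the treated ones. Vehicle mouse 1 alone reached into the treated range, and treated mouse 2 was the highest of all. The means were 27.9 ± 6.25 and 50.2 ± 19.3 CPM, with a log2 fold change of 0.85 (SE 0.27, edgeR adjusted p = 0.0420).

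Both kidney calls lay close to the threshold. When each library was left out in turn, Nr4a1 kept its call in 5 of 10 fits and Junb in 4 of 10, with log2 fold changes of 1.34 to 2.30 and 0.61 to 1.00. Leaving out any vehicle mouse from 2 to 5 removed both calls, leaving out vehicle mouse 1 removed that of Nr4a1 (edgeR adjusted p = 0.0652), and leaving out oxaliplatin mouse 1 or 5 removed that of Junb (0.0798 and 0.0691). Without oxaliplatin mice 2 and 5, the highest of their group in all 10 members between them, the log2 fold changes were 1.25 for Nr4a1, which kept its call, and 0.60 for Junb, which did not (edgeR adjusted p = 0.0963).

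Fos, the AP-1 subunit after which the family is named (chr12:85473890-85477273, plus strand), was at 3.51, 2.32, 0.605, 0.362 and 1.62 CPM in vehicle kidneys, a range of 9.69-fold among untreated mice. With oxaliplatin it was at 6.24, 17.7, 2.19, 1.68 and 6.03 CPM. Treated mouse 2 stood highest, mice 1 and 5 were next, and mice 3 and 4 lay inside the vehicle range. The log2 fold change of 1.99 had a standard error of 0.80 and did not pass (edgeR adjusted p = 0.0978). Egr1, a zinc finger factor on chromosome 18, varied in a similar way, with 26.3, 12.4, 5.14, 6.0 and 11.5 CPM under vehicle and 36.8, 116, 16.0, 13.3 and 43.2 CPM under oxaliplatin. Vehicle mouse 1 was above treated mice 3 and 4. Its mean was 12.3 ± 8.49 CPM against 45.0 ± 41.5 CPM, and the log2 difference of 1.87 with a standard error of 0.72 did not pass either (edgeR adjusted p = 0.0873). Without treated mouse 2 the log2 fold changes were 1.25 for Fos and 1.15 for Egr1.

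The remaining AP-1 and ATF members of the kidney did not pass the test. Jun, the main partner of Fos (chr4:95049034-95052222, minus strand), was at 48.3, 43.7, 47.5, 43.9 and 59.0 CPM with vehicle and 61.9, 98.6, 51.0, 43.2 and 67.7 CPM with oxaliplatin. Treated mice 1, 2 and 5 were above every vehicle mouse and mouse 4 below every one, with a log2 fold change of 0.41 (SE 0.21, edgeR adjusted p = 0.168). Fosb (chr7:19302696-19310051, minus strand), a Fos relative, was scarce, at 1.53, 1.03, 0.346, 0.604 and 0.162 CPM against 1.61, 3.23, 0.395, 0.491 and 1.44 CPM. Atf3 (chr1:191170296-191218039, minus strand), a stress-induced repressor of the ATF family, was scarce too, at 0.709, 0.533, 0.864, 0.845 and 1.05 CPM against 0.682, 1.58, 0.647, 0.772 and 1.71 CPM. In both genes 2 treated mice were above all vehicle mice, namely 1 and 2 for Fosb and 2 and 5 for Atf3, and the log2 fold changes were 0.95 and 0.44 (edgeR adjusted p = 0.297 and 0.341).

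Ier2 (chr8:84661331-84662852, minus strand), a nuclear protein of the early response, was at 16.6, 13.8, 15.2, 13.8 and 14.2 CPM in vehicle kidneys and 23.7, 28.7, 17.7, 11.6 and 17.8 CPM in treated ones. The vehicle mice lay within 1.20-fold of each other, 4 treated mice were above all of them and mouse 4 was below all of them, and the log2 fold change of 0.44 did not pass (edgeR adjusted p = 0.117). Without oxaliplatin mouse 4 it was 0.59 and passed (edgeR adjusted p = 0.00417). Zfp36 (chr7:28376784-28380253, minus strand) was at 53.6, 65.2, 41.6, 48.1 and 45.6 CPM with vehicle and 56.1, 121, 48.5, 44.3 and 100.3 CPM with oxaliplatin. Its treated mice split into 2 high (2 and 5) and 3 within the vehicle range, with a log2 fold change of 0.54 (edgeR adjusted p = 0.229). Dusp1 (chr17:26505590-26562128, minus strand) was the most abundant member per kilobase of exon in the vehicle kidney, at 107, 134, 113, 104 and 93.0 CPM against 79.7, 124, 85.6, 78.5 and 163 CPM. Here 3 treated mice lay below every vehicle mouse and mouse 5 above every one, and the means, 110.2 ± 15.2 and 106 ± 36.8 CPM, gave a log2 fold change of -0.05 (SE 0.22, edgeR adjusted p = 0.879).

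In the bone marrow, 4 members rose after oxaliplatin, namely Jun 2.40-fold, Egr1 2.68-fold, Atf3 2.29-fold and Fos 1.85-fold, and 0 fell. The called share of all marrow genes was 23.3%, with 11.6% higher and 11.8% lower. At an unadjusted p under 0.05 edgeR gave 5 members higher and 0 lower (20.8% and 21.7% of all genes), and DESeq2 called 5 higher, with Junb as the addition, and 0 lower (13.1% and 12.0%). The median log2 fold change over the 10 members was 0.72, against -0.04 over all tested genes. In Jun, Junb and Egr1 every treated mouse lay above every vehicle mouse, and in 0 members every one lay below, while the groups did not overlap in 24.9% of all tested genes, 11.4% higher and 13.5% lower. The 4 calls held whichever library was left out, but Fos lost its call with the Y-linked level as a covariate (edgeR adjusted p = 0.0660). Marrow is a mixture of cells. In bulk RNA a rise or fall in the share of a cell type cannot be told apart from one in RNA per cell.

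**Figure D2:**
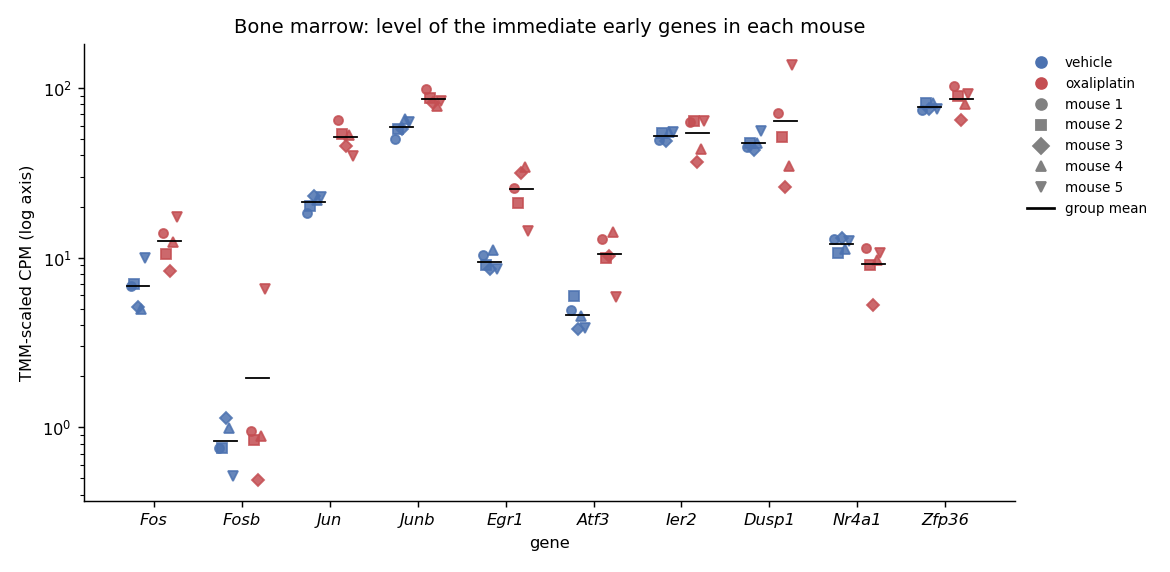
TMM-scaled CPM of the 10 members in each bone marrow, drawn as for the kidney. Jun, Junb and Egr1 separated the groups fully, and oxaliplatin mouse 5 stood above the others of its group in Fosb (6.58 CPM) and Dusp1 (137 CPM).

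Jun was at 18.4, 20.1, 23.2, 21.9 and 22.9 CPM in vehicle marrow and at 64.3, 53.5, 45.5, 52.8 and 39.6 CPM in treated marrow. The groups were far apart, the lowest treated mouse, mouse 5, lying well above the highest vehicle mouse. The mean went from 21.3 ± 2.03 to 51.2 ± 9.28 CPM, with a log2 fold change of 1.26 (SE 0.13, edgeR adjusted p = 9.11e-06). Junb was at 49.9, 57.4, 56.9, 65.2 and 62.8 CPM with vehicle and 98.1, 87.4, 81.3, 78.5 and 83.2 CPM with oxaliplatin. The groups were again apart, but the log2 fold change of 0.55 (SE 0.09, edgeR adjusted p = 0.000580) stayed just under 1.5-fold. Prdx2, whose exons share bases with Junb on the other strand, fell from 555 ± 86.2 to 206 ± 84.5 CPM in these libraries. Jun shares 232 exon bases with the antisense gene Junos. In vehicle marrow Junos had a mean of 289.4 reads and Jun had 580 to 768. Zfp36 shares 125 exon bases with Gm44710, and Dusp1 shares 11 with Ergic1. How far reads of the shared bases were counted to either gene was not tested.

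Fos in marrow was at 6.77, 6.98, 5.14, 4.99 and 9.94 CPM with vehicle and 13.9, 10.4, 8.39, 12.4 and 17.3 CPM with oxaliplatin. All treated mice but mouse 3 were above the highest vehicle mouse, and the means of 6.76 ± 2.00 and 12.5 ± 3.41 CPM gave a log2 fold change of 0.88 (SE 0.23, edgeR adjusted p = 0.00868). Fosb was at 0.760, 0.757, 1.13, 0.998 and 0.520 CPM against 0.951, 0.846, 0.489, 0.890 and 6.58 CPM. Its treated mean rested on mouse 5, since with it the log2 fold change was 1.22 (SE 0.65, edgeR adjusted p = 0.178), and without it -0.04.

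Egr1 was at 10.3, 8.99, 8.57, 11.0 and 8.51 CPM in vehicle marrow and 25.8, 21.1, 31.6, 34.3 and 14.3 CPM in treated marrow. The groups did not overlap, and mouse 5 was the lowest of the treated mice. The log2 fold change was 1.42 (SE 0.20, edgeR adjusted p = 0.000145). Atf3 followed the same order of treated mice at both ends, with 4.94, 5.91, 3.81, 4.56 and 3.83 CPM under vehicle and 12.8, 9.94, 10.2, 14.1 and 5.82 CPM under oxaliplatin. Treated mouse 5, at 5.82 CPM, was just below the highest vehicle mouse, at 5.91 CPM, and the log2 fold change was 1.20 (SE 0.23, edgeR adjusted p = 0.00114). Nr4a1 was at 12.8, 10.7, 13.1, 11.2 and 12.6 CPM with vehicle and 11.5, 9.06, 5.24, 9.66 and 10.6 CPM with oxaliplatin. Here 4 treated mice lay below every vehicle mouse and 0 above, yet the log2 fold change of -0.39 (SE 0.18) did not pass (edgeR adjusted p = 0.120).

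The last 3 members did not pass in marrow. Ier2 was at 49.2, 53.9, 48.6, 54.9 and 55.3 CPM with vehicle and 63.2, 63.9, 36.8, 43.6 and 64.0 CPM with oxaliplatin, where mice 1, 2 and 5 lay above and mice 3 and 4 below every vehicle mouse (log2 fold change 0.05, edgeR adjusted p = 0.829). Zfp36 was at 74.4, 81.4, 75.2, 81.8 and 75.0 CPM against 102, 89.6, 64.3, 80.8 and 92.4 CPM, with 3 treated mice above the vehicle range and mouse 3 below it (log2 fold change 0.15, edgeR adjusted p = 0.350). Dusp1 was at 44.7, 47.4, 43.1, 47.1 and 55.7 CPM against 70.8, 51.2, 25.9, 34.7 and 137 CPM. Its treated mice spanned 5.28-fold and lay on both sides of the vehicle mice, and the log2 fold change of 0.42 had a standard error of 0.37 (edgeR adjusted p = 0.425) and became -0.03 without mouse 5.

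Whether a member responded differently in the 2 tissues was tested with the tissue by treatment interaction in 1 edgeR fit over all 20 libraries. Of the 10 members, 2 passed an adjusted p under 0.05, against 30.1% of all tested genes (13.1% with a higher and 17.0% with a lower log2 fold change in kidney). Nr4a1 had the higher response in kidney, by 2.41 on the log2 scale (SE 0.54, edgeR adjusted p = 0.00208). Jun had the lower response in kidney, by -0.90 (SE 0.24, edgeR adjusted p = 0.00560). Both calls held with every library left out in turn. For Atf3 the difference was -0.81 (SE 0.41, edgeR adjusted p = 0.140), and it passed only without marrow oxaliplatin mouse 5 (0.0426). Among the other members the difference lay between -0.51 for Dusp1 and 1.07 for Fos, with standard errors of 0.25 to 0.94. Calls in one tissue alone, such as those of Egr1 and Fos in marrow and of Junb in kidney, were thus not shown to differ between tissues.

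**Figure D3:**
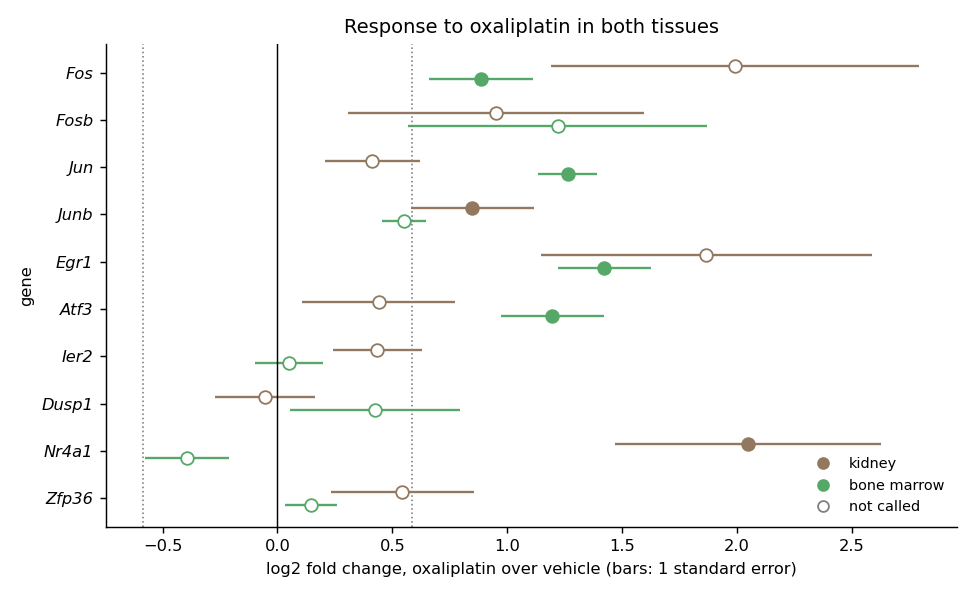
Log2 fold change of oxaliplatin over vehicle for the 10 members in kidney (brown) and bone marrow (green), with bars of 1 standard error, filled points for called genes, and dotted lines at 1.5-fold. Nr4a1 lies at 2.05 in kidney and -0.39 in marrow, and Jun at 0.41 in kidney and 1.26 in marrow.

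Without drug the tissues differed in the levels of the members. In the same fit, vehicle kidney was higher than vehicle marrow in Jun (log2 difference 1.62) and Dusp1 (1.64). It was lower in Fos (-1.56), Junb (-0.64), Atf3 (-2.10), Ier2 (-1.40) and Nr4a1 (-0.86). Nr4a1 had the highest adjusted p of these 7 (edgeR adjusted p = 0.0492) and kept its call in 5 of 20 fits with a library left out, and Junb, the nearest to the 1.5-fold limit, lost its call without vehicle kidney 3 or 4. The share of all genes called here was 72.9% (34.6% higher and 38.3% lower), so that 7 of 10 members is near the background. RNA was extracted by different kits and reagents in the 2 tissues, which cannot be told apart from tissue.

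Levels of different genes are compared per kilobase of exon. In vehicle kidney the order from the top was Dusp1 (33.3 CPM per kb), Jun (15.2), Zfp36 (14.7), Junb (12.1), Ier2 (9.67), Egr1 (2.74), Nr4a1 (1.41), Fos (0.716), Atf3 (0.372) and Fosb (0.118). Neighbours were apart, with no overlap of their mice, only between Dusp1 and Jun, between Ier2 and Egr1, and between Atf3 and Fosb. In vehicle marrow the order was Ier2 (34.4 CPM per kb), Junb (25.4), Zfp36 (22.4), Dusp1 (14.4), Jun (6.68), Nr4a1 (3.45), Fos (2.88), Atf3 (2.14), Egr1 (2.12) and Fosb (0.134). There the ranges of neighbours overlapped between Junb and Zfp36 and from Nr4a1 down to Egr1, and the others were apart. After oxaliplatin, every pair of neighbours overlapped in kidney. In treated marrow Jun was apart from Egr1 and Nr4a1 from Fosb, and Nr4a1, at 2.62 CPM per kb, stood below Egr1, Fos and Atf3 at 5.67, 5.31 and 4.91, although its range overlapped those of Egr1 and Atf3.

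The spread between mice was wide for the members in kidney, as a description with no test. Genes like them could be wide among treated kidneys too, as were Maff, a small Maf protein (7.52 ± 4.77 CPM), and the early response gene Ccn1 (48.7 ± 23.5 CPM). Others were not, such as Plk2 (34.9 ± 2.98 CPM), and how many were as wide was not counted. The spread of Atf3, a scarce gene, was 1.06 times that of edgeR's trend for its level. The SD of log2 CPM over the 5 treated kidneys was a median of 0.65 over the members and 0.22 over all genes, and 6 members (Fos, Fosb, Egr1, Atf3, Nr4a1 and Zfp36) were above the 90th percentile of all genes. In vehicle kidneys the medians were 0.27 and 0.18, and Fos, Fosb and Egr1 were above that percentile. All 10 members varied more among treated than among vehicle kidneys, as did 60.1% of all genes. Nr4a1 went furthest, from an SD of 0.16 to one of 1.18, while Fos was wide in both groups at 1.27 and 1.33. In marrow the median SD of the members was 0.15 with vehicle, under the 0.22 of all genes, and 0.42 with oxaliplatin, against 0.36. There only Fosb and Dusp1 were above the 90th percentile, both in the treated group, and 8 members varied more with oxaliplatin, as did 74.7% of all genes.

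**Figure D4:**
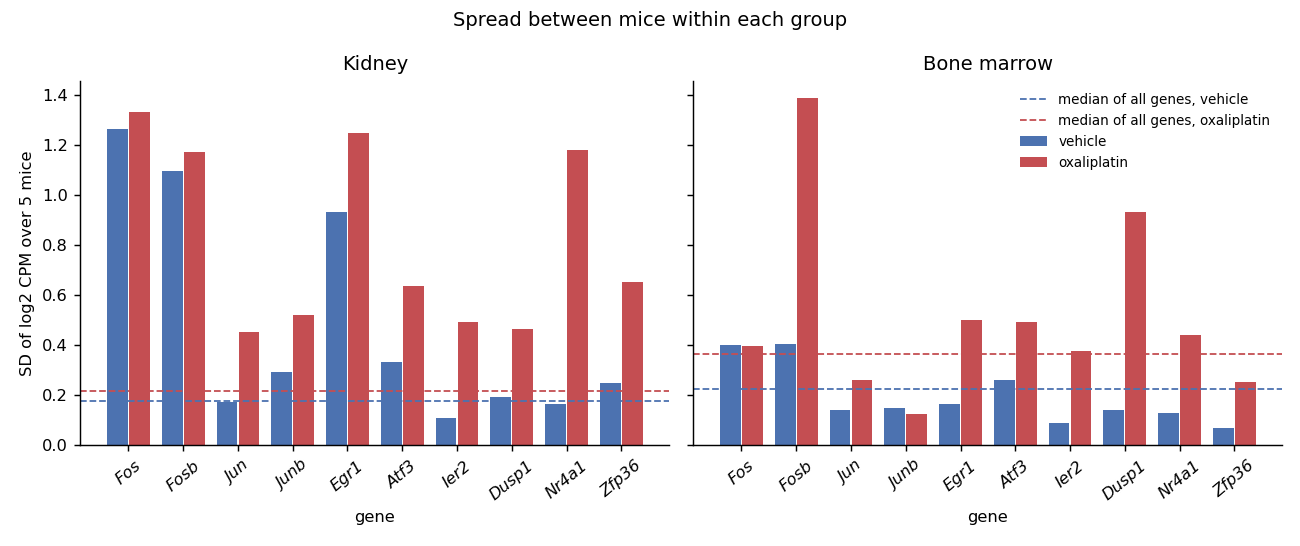
SD of log2 CPM over the 5 mice of each group for the 10 members in kidney and bone marrow, as bars from 0, with dashed lines at the median SD of all tested genes. In kidney every red bar is above its blue neighbour, and in marrow Fosb and Dusp1 stand out among the treated mice.

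In kidney the members went up and down together from mouse to mouse. After each group's mean was subtracted, Pearson's r over 10 kidneys was positive for 45 of 45 pairs of members, with a median of 0.73. It was highest between Fos and Egr1 (0.96) and lowest between Fosb and Atf3 (0.18). The mean over the members was 1.07 above its group on the log2 scale in treated mouse 2 and 0.85 below it in treated mouse 4, and among vehicle mice it was highest in mouse 1, at 0.46. Without treated mouse 2 the median r was 0.55 with 42 positive pairs, and without treated mice 2 and 4, the farthest from the median, it was 0.43 with 36. Within the 5 treated kidneys it was 0.88 with 45 positive pairs, and within the 5 vehicle kidneys 0.25 with 29. All pairs share the same libraries, so these values describe them and were given no test.

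**Figure D5:**
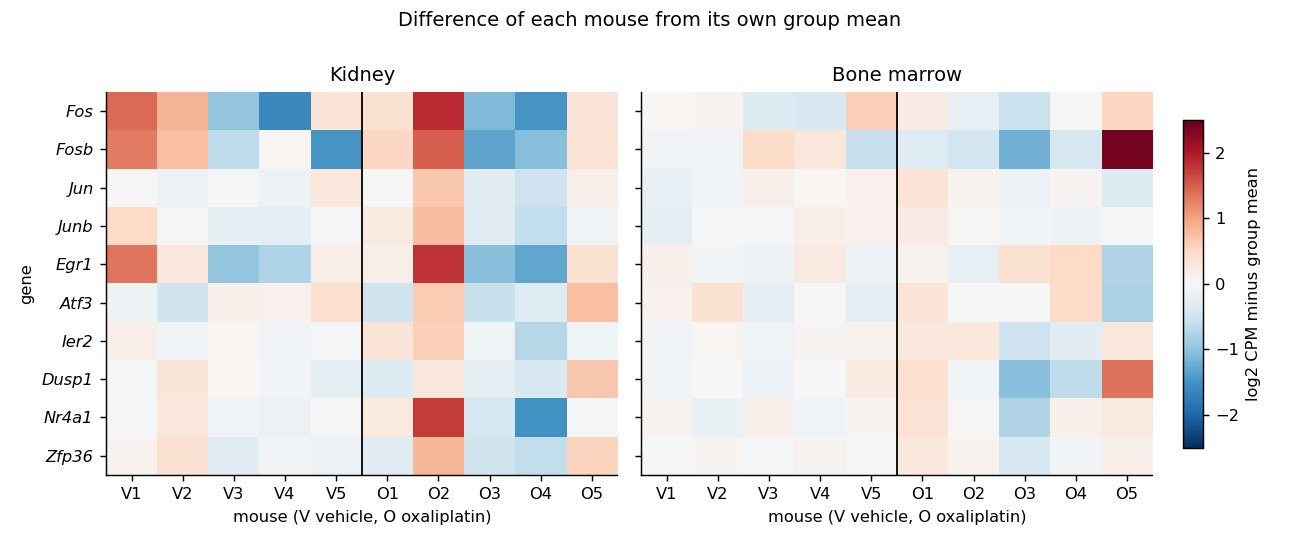
Log2 CPM of each member in each mouse minus the mean of that mouse's own group, in kidney and bone marrow, with V for vehicle and O for oxaliplatin, red for above and blue for below. In kidney the column of O2 is red and that of O4 blue over all 10 genes, while in marrow O5 is red for Fosb and Dusp1 and blue for Egr1 and Atf3.

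In marrow the members did not share one pattern. Of the 45 pairs 27 were positive, and the median r was 0.31, with a range from -0.86 between Egr1 and Dusp1 to 0.90 between Ier2 and Zfp36. Zfp36, Nr4a1, Dusp1 and Ier2 correlated with the mean of the other members at r of 0.88, 0.82, 0.80 and 0.78. Egr1 and Atf3 ran against it at -0.71 and -0.44 while they correlated with each other at 0.79, and Jun was near 0 at -0.01. Among the 5 treated marrows, mouse 3 was the lowest in 6 members, whereas mouse 5 was the highest in 4 and the lowest in 3, namely Jun, Egr1 and Atf3. Without treated mouse 5 the median r was 0.39 with 34 positive pairs.

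Marker sums moved along with some of these values, and their part in them was not tested. In marrow, treated mouse 5 had the highest summed neutrophil level, 27839 CPM against 9726 to 23243 in the other treated mice, and the lowest adipocyte level, 407 CPM against 809 to 1724. Treated mouse 3 had the lowest neutrophil level and the highest skeletal muscle and heat shock levels, 821 and 3755 CPM. Between the groups, 11 of 12 erythroid and 8 of 10 B cell markers fell and 6 of 6 adipocyte, 6 of 7 muscle, 6 of 7 megakaryocyte, 5 of 8 endothelial and 5 of 10 monocyte and macrophage markers rose, and 0 of the markers of these 7 lists was at 0 in all libraries. The erythroid sum was 31758 to 54974 CPM with vehicle and 4056 to 10599.5 CPM with oxaliplatin, and the adipocyte sum 77.9 to 135 CPM and 407 to 1724 CPM. In kidney, 4 of 6 podocyte, 4 of 5 tested adipocyte and 3 of 8 endothelial markers rose and 3 of 8 proximal tubule markers fell. Of 5 tested stroma and bone markers 4 rose, with sums of 290 to 333 CPM under vehicle and 447 to 535 CPM under oxaliplatin, and 5 of 10 monocyte and macrophage markers fell, with sums of 141 to 175 CPM and 97.0 to 116 CPM. Treated mouse 2, highest in 8 members, had the highest proximal tubule sum of its group (21064 CPM, others 14676 to 20605) and the lowest adipocyte sum (54.1 CPM, others 65.0 to 143). Treated mouse 5, highest in 2 members, had a proximal tubule sum of 14994 CPM and the highest adipocyte sum. Treated mouse 4, lowest in 8 members, had 18736 and 88.0 CPM. The order of the treated kidneys by the members was thus not that of either sum. Heat shock genes, another stress-responsive group, fell in 4 of 12 cases in kidney, with summed levels of 2635 to 3901 CPM with vehicle and 1781 to 2243 CPM with oxaliplatin, and rose in 7 of 12 and fell in 1 (Dnajb1) in marrow.

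Relatives and partners of the members were counted over lists of genes, with medians of the log2 fold change beside 0.02 over all kidney genes and -0.04 over all marrow genes. For the counts of every list here and below, the shares of all genes were 7.68% higher and 3.81% lower in kidney. In marrow they were 11.6% and 11.8%. The kidney counts of AP-1 partners, EGR relatives and MAP kinase phosphatases are near that share. Of 10 AP-1 partners and small Maf proteins tested in kidney, 1 rose, Fosl2, a Fos relative, from 28.5 ± 3.61 to 61.5 ± 17.6 CPM (log2 fold change 1.11, edgeR adjusted p = 0.00128), without overlap of the groups. Of 12 in marrow, 4 rose and 1 fell, with Maff up by a log2 fold change of 1.11 and Mafk down by -1.08. The list medians were 0.04 and 0.06. Of the EGR, KLF and NR4A relatives, 1 of 8 rose in kidney, Nr4a3, which was below 1 on the mean log2 CPM scale, and 2 of 10 in marrow, with medians of 0.35 and 0.33. Egr2, the nearest relative of Egr1, rose in marrow from 2.17 ± 0.528 to 12.4 ± 2.93 CPM (log2 fold change 2.51, edgeR adjusted p = 2.99e-06), and Nab2, a repressor of EGR proteins, rose too (0.79).

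Among other early response genes, 9 of 34 rose in kidney and 1 fell (median 0.21), the largest among genes not below 1 on the mean log2 CPM scale being Plk2 (log2 fold change 1.92), Cebpd (1.61), Btg2 (1.34) and Gadd45b (0.88), and Id2 fell. Ptgs2, a scarcer gene that encodes the cyclooxygenase COX-2 and is named here after its values were seen, went from 0.147 ± 0.109 to 0.824 ± 0.184 CPM, a larger log2 fold change of 2.48 (edgeR adjusted p = 0.00108). In marrow 11 of 36 rose and 2 fell (median 0.27), the largest being Ccn1 (2.87), Plk2 (2.07), Errfi1 (2.05) and Socs3 (1.74), and Btg2 and Npas4 fell. Btg2, an antiproliferative p53 target, thus rose in kidney from 16.0 ± 1.39 to 40.6 ± 13.2 CPM and fell in marrow from 193 ± 24.5 to 69.3 ± 11.0 CPM, without overlap of the groups in either tissue. The 26 transcription factors and kinases that act upstream of the members had 0 calls in each tissue by edgeR and by DESeq2, with medians of 0.01 and 0.02. At an unadjusted p under 0.05, edgeR gave 6 higher and 4 lower in kidney (20.5% and 20.2% of all genes). In marrow it gave 6 higher and 5 lower (20.8% and 21.7%). These counts are near the background.

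MAP kinase phosphatases and Sprouty proteins, the feedback inhibitors to which Dusp1 belongs, had 1 of 14 higher in kidney (Spry1, log2 fold change 0.65) and 4 higher and 2 lower of 14 in marrow, with medians of 0.07 and 0.26. In marrow Dusp4 rose from 3.84 ± 0.519 to 30.6 ± 7.46 CPM (log2 fold change 3.00), Spry4 by 2.27 and Spry1 by 2.03 on that scale, and Dusp8 fell by 1.80. A list of transcripts that the product of Zfp36 is known to bind held mostly cytokines, beside Ier3 and Ptgs2, which are no cytokines and were also counted among the early response genes. Of it, 1 of 4 tested rose in kidney (Ptgs2) and 4 of 11 rose and 2 fell in marrow, with medians of -0.18 and 1.09. DESeq2 called 4 higher and 1 lower in marrow. The marrow median was the value of Il10, which was not called and was near the floor at 0.199 ± 0.265 CPM with vehicle. Ier3, which rose in marrow by 1.10, and the chemokine Ccl3, which fell by 0.61, were the called genes not below 1 on the mean log2 CPM scale.

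Genes whose deviations from the group means most resembled the mean of the members were sought over 10 libraries, as a description with no test. In kidney they were Polh (r = 0.94), Sipa1l3 (0.93), Trip10 (0.90), Btg2 (0.90) and Rnf214 (0.89) among 13627 candidates, and 4 of these 5 were also in the top 20 by Spearman's rho. In marrow they were Clk1 (0.99), Pqlc3 (0.99), Fn1 (0.99), Ttc17 (0.99) and Irf5 (0.99) among 14640 candidates, and 2 of these 5 were in the top 20 by rho.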

How the data were processed

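According to the methods, STAR alignments to an Ensembl mouse genome were counted, and the authors deposited whole-number counts of unique, unambiguous reads per gene, without normalization, for 10 kidney and 10 bone marrow libraries. Strand use in counting is not given in the sources used here, so reads that antisense neighbours share cannot be told apart. The submitters' notes also name featureCounts and Salmon. Of 55774 lines per table, 1 with a missing value and 287 repeats were dropped.

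Genes were filtered with filterByExpr (minimum count 10), scaled by TMM and compared in edgeR 4.0.16 (R 4.3.3) by its two-sided quasi-likelihood test with robust estimation, with Benjamini-Hochberg adjustment over all tested genes; the thresholds are those of the study. Both tissues were tested in 1 fit of 24321 genes for the interaction and the tissue difference. DESeq2 1.42.0 and other settings were tried as alternatives. The log2 CPM used a prior count of 2. With 5 replicates a group, p-values set the group difference against the spread between these libraries, and floors of 3 counts (0.0729 to 0.123 CPM) cover counting error only. Steps were tested on simulated counts, drawn at the spread that edgeR's trend gives for a gene's level. In kidney 10 members lay above that trend, as did 30.8% of all genes, and in marrow 5 members and 31.4%. The simulation thus does not cover genes as variable as these. Exon lengths, overlaps and positions came from GENCODE mouse release 21 of GRCm38, and upstream bases from RefSeq.

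The members and all gene lists were chosen with earlier results of these data known. All members were named, then per list up to 4 called genes of the largest absolute log2 fold change not below 1 in mean log2 CPM, and per tissue the 5 genes most like the members. Id2, Npas4, Nr4a3, Dnajb1, Prdx2 and, in marrow, Btg2 and Il10 were named after their values were seen. So were Maff, Ccn1 and Plk2 where the spread in kidney is given. Junos, Gm44710 and Ergic1 were named because their exons share bases with members. Same-numbered libraries were not paired, since the labels do not link them.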

Additional observations from a re-analysis of the deposited data

Results flagged for a closer look

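Single libraries stood apart from the rest of their group, by a test of the gap to the next library over the whole range on the log2 scale, in 3 of 40 groups of 5 tested (the 10 members in 4 groups), where chance gives about 1 in 20. Junb in vehicle kidney 1 was at 38.6 CPM against 23.4 to 26.9 CPM in the others, with a gap of 0.720 of the range. Nr4a1 in vehicle kidney 2 was at 6.02 CPM against 4.47 to 4.82 CPM, with a gap of 0.747 of the range. Fosb in oxaliplatin marrow 5 was at 6.58 CPM against 0.489 to 0.951 CPM, with a gap of 0.755 of the range.

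The response to oxaliplatin differed between kidney and marrow, by the interaction test of edgeR, in 2 of 10 members, against 30.1% of all tested genes, so that their number does not exceed the background. The log2 fold change of Nr4a1 was 2.41 higher in kidney than in marrow (4 of 5 treated kidneys above every vehicle kidney, and 4 of 5 treated marrows below every vehicle marrow), and that of Jun was lower in kidney, by -0.90 (3 of 5 treated kidneys and 5 of 5 treated marrows above every vehicle library of their tissue).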

How the results depend on the processing

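The 4 marrow calls were kept with every library left out and under DESeq2, other scalings, filters and the block; Fos lost its call with a covariate of Y-linked genes, when tested against 1.5-fold and beyond 2-fold, where 3 members remained (7.21% of all genes higher). The kidney count depended on the setting. It went from 2 higher (7.68% of all genes) to 4 with DESeq2 (8.25%) and 4 without robust estimation (7.74%), to 1 beyond 2-fold (3.40%), to 0 in the edgeR test against 1.5-fold (1.51%, 3 members at an unadjusted p under 0.05) and to 0 without a filter (4.45%, 4 members at an unadjusted p under 0.05, lowest adjusted p = 0.0502). It was 1 without oxaliplatin mice 2 and 5 together (5.85%), a setting chosen after seeing the data, and 0 to 3 with 1 library left out. With 1 library left out, 1 to 2 members passed the interaction with a lower response in kidney and 3 to 5 were lower in vehicle kidney than in vehicle marrow. Directions turned only for members that were not called. Without oxaliplatin mice 2 and 5 the kidney log2 fold changes were -0.18 for Atf3 and -0.026 for Zfp36, and with library size alone 0.078 for Dusp1. With the Y-linked covariate those in marrow were -0.63 for Fosb, -0.19 for Ier2 and -0.47 for Dusp1. Fosb was at 0.19 in the interaction with the block and at -0.15 in the vehicle comparison with library size alone. With 1 library left out the log2 values ran from -0.25 to 0.046 for Dusp1 in kidney, from -0.014 to 0.16 for Ier2, -0.040 to 1.47 for Fosb and -0.029 to 0.63 for Dusp1 in marrow, from -0.84 to 0.94 for Fosb, -0.0062 to 0.40 for Junb and -0.35 to 0.88 for Egr1 in the interaction, and from -0.20 to 0.52 for Fosb between vehicle tissues. Library size alone moved the median log2 fold change of all genes from 0.02 to 0.16 in kidney, from -0.04 to 0.11 in marrow, and from -0.12 to -0.54 between vehicle tissues. The cause of these shifts was not tested.

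Replicate numbers are shared by the groups, but the labels do not say what they pair, and the correlation of same-numbered deviations ran from -0.19 to 0.13 in kidney, from -0.09 to 0.39 in marrow and from -0.09 to 0.17 between tissues. Of the 5 numbers, 2 vehicle mice in kidney and 2 in marrow correlated best with the treated mouse of their own number. With the replicate block 3 kidney members (Fos, edgeR adjusted p = 6.47e-04, beside Junb and Nr4a1, against 6.79% of all genes) and 4 marrow members (10.6%) were called higher, and 1 higher (12.3%) and 1 lower (15.3%) passed the interaction. In kidney the lowest counts were 4 reads for Fosb, 9 for Fos and 14 for Atf3, so that Fos and Fosb had no value under the filter of 10 counts in every library.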
